A study of Mus musculus with 12 samples.

Results

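The genes described here are 10 genes on mouse chromosome 19 that lie within 10 Mb of Nfkb2, the gene disrupted in the knockout mice of this study. They are Pdzd7, Sfxn3, Ide, Cyp2c68, 2310034G01Rik, Psd, Fbxl15, Cuedc2, Actr1a and Gbf1, out of 46517 genes in the count tables and 12522 genes with enough counts to be tested. All 10 members had enough counts to be tested, and 125 other tested genes lay in the same window. The members were chosen by symbol, and some were picked because they differed between the genotypes in both treatments, so differences between genotypes are given for them as a description. Calls of the members at the thresholds used in that choice are printed below and support nothing.

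RNA was sequenced from intestinal epithelial cells of the colon, taken from C57BL/6 mice aged 7 to 9 weeks. Wild-type (WT) and Nfkb2-/- (knockout, KO) mice either stayed untreated or received dextran sulfate sodium (DSS) for 48 h, an agent that damages the lining of the colon. Each of the 4 groups (WT untreated, WT under DSS, KO untreated, KO under DSS) held 3 samples. The labels name neither the part of the gene removed, nor the strain of the stem cells used for targeting, nor whether WT mice were littermates. Cells were detached with EDTA, and flow cytometry typically found about 90% of them positive for EpCAM and negative for CD45.2, by the labels' account. The title numbers the samples 1 to 3 in each group, and nothing says more about their source, so p-values measure the spread between these samples.

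Nfkb2 encodes p100, which is processed to p52 and pairs with RelB in the noncanonical NF-kB pathway. In a knockout line, genes close to the altered gene are inherited with it, because recombination between neighbouring positions is rare. Alleles of such linked genes come from the strain in which the gene was altered, and they persist the longer the nearer they lie. Genes beside an altered gene can also share its enhancers, its transcripts or its exons. These are general properties of linked genes. Whether any of them applies to these mice was not tested, since gene counts hold no sequence variants.

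Total counts were 5595909 to 8117740 per sample, and 15738 to 17120 genes had at least 1 count. Epithelial markers (8 genes, among them Epcam, Krt8 and Vil1) summed to 20827 to 31811 CPM (read counts scaled to library size) in every sample. Of the 12 leukocyte markers, 8 had enough counts to be tested. All 12 summed to 14.8 to 25.7 CPM in untreated WT and 47.9 to 53.6 in WT under DSS. In KO they summed to 61.3 to 76.5 CPM untreated and 95.9 to 146 under DSS. Goblet markers (5 genes) summed to 18462 to 29082 CPM in untreated WT and 13017 to 14593 in untreated KO, and to 14413 to 16825 and 25756 to 29958 under DSS. The single genes went both ways between untreated WT and untreated KO means. Clca1 (15508 and 6372 CPM), Muc2 (4842 and 3618) and Fcgbp (4047 and 3330) were lower in KO. Zg16 (199 and 338) and Tff3 (25.0 and 37.2) were higher. Colonocyte markers (5 genes) summed to 8397 to 9666, 1794 to 2151, 4999 to 5438 and 2159 to 2698 CPM in the order WT untreated, WT under DSS, KO untreated and KO under DSS. Most of that sum was Car1, with means of 7068 CPM in untreated WT and 2552 in untreated KO. Slc9a3 was also lower in untreated KO (126 and 90.0). By contrast, Car4 (555 and 889), Aqp8 (314 and 476) and Slc26a3 (1137 and 1154) were higher there. Stromal (8 genes, at most 15.9 CPM), enteric neuron and glia (6 genes, at most 2.22 CPM) and liver markers (3 genes, at most 10.7 CPM) were low in every sample, and Lum, Pdgfra and Sox10 were at 0 throughout. Within each treatment, the stromal and liver sums were higher in every KO sample than in any WT sample, and Vim and Ttr had the highest means of these lists in KO. The part of these cell markers in the differences below was not tested. In bulk RNA, fewer cells of a type and less RNA per cell cannot be told apart.

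The targeted gene was checked first. Nfkb2 (ENSMUSG00000025225.13, chromosome 19 from 46304320 to 46312385, plus strand, GRCm38) was at 30.8, 36.1 and 43.7 CPM in the untreated WT samples and at 41.6, 46.1 and 39.6 CPM in those given DSS. In KO it was at 11.7, 17.5 and 13.9 CPM untreated and at 19.6, 15.6 and 17.2 CPM under DSS. The highest of 6 KO values stood under the lowest of 6 WT values (exact two-sided permutation test, difference -1.31 in log2 CPM, p = 0.00216, the smallest p that 924 rearrangements allow). Reads from the gene thus remained in the KO libraries at 40.1% of the WT level.

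The members fall along the chromosome in 3 places. Ide and Cyp2c68 lie 8.97 and 6.56 Mb to the lower-coordinate side of Nfkb2. Pdzd7 and Sfxn3 are neighbours 1.26 and 1.25 Mb to the same side. The other 6 surround Nfkb2: Gbf1 ends 17.8 kb before it, and Psd overlaps its 3′ end. The nearest edges of Fbxl15, Cuedc2, 2310034G01Rik and Actr1a lie 15.8, 17.4, 35.8 and 64.4 kb after it. For Cuedc2, 2310034G01Rik and Actr1a, on the minus strand, that edge is the 3′ end. Pdzd7 and Sfxn3 are transcribed away from each other, with 1785 bases between their annotated starts, and Psd and Fbxl15 form a like divergent pair 1027 bases apart.

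Because Nfkb2 encodes a DNA-binding subunit, the 250 bases before each RefSeq gene start were searched on both strands for the kappaB consensus, the motif bound by NF-kB dimers. None of the 12 annotated starts of the 10 members had a match, where 3.90% of the 32851 RefSeq promoters of the same length did. With so few starts, 0 matches cannot be told apart from that share. The windows of Ide, 2310034G01Rik and the lower-coordinate start of Psd lie inside the annotated spans used for these genes elsewhere here. So do the windows of Nfkb2, including that of its first annotated start. Those of Sfxn3, Cuedc2, Actr1a, Gbf1 and the higher-coordinate start of Fbxl15 lie partly inside. The first annotated start of Nfkb2 had 3 matches, of which 2 overlap. The sequences of Pdzd7 and Sfxn3, the neighbouring pair that differed most, are shown beside that of Nfkb2 (RefSeq, GRCm38.p6, 5′ to 3′ on the strand of each gene, at chr19:45045773-45046022 minus, chr19:45047326-45047575 plus and chr19:46304487-46304736 plus). Capitals mark matches to the consensus.
Pdzd7: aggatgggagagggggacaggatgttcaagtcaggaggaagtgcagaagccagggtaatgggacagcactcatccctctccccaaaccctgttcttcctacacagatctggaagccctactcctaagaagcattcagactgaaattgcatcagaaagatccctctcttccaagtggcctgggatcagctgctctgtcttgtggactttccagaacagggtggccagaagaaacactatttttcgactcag
Sfxn3: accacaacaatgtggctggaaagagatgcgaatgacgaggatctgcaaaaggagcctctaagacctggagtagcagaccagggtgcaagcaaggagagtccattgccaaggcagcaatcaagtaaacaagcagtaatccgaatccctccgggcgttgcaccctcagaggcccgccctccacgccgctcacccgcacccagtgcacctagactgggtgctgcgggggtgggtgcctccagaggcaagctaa
Nfkb2: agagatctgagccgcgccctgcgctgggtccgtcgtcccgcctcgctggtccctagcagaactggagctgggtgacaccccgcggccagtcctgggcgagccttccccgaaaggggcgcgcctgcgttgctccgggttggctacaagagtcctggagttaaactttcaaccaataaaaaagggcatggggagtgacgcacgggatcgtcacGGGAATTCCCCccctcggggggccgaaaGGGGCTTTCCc
A missing match says only that these letters are not in this window.

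Pdzd7 encodes a scaffold protein of the Usher complex, known from the stereocilia of hair cells. Its counts (ENSMUSG00000074818.11, chromosome 19 from 45026906 to 45045717, minus strand) were 95, 111 and 100 in untreated WT and 59, 53 and 64 in WT under DSS, and 0 in each of the 6 KO libraries. On the CPM scale the WT values were 13.8, 18.2 and 15.5 untreated and 8.96, 7.07 and 10.4 under DSS. No KO read was assigned to the gene, and the genotypes were fully separate. With a floor of 3 counts over the 3 KO libraries of a group (0.125 CPM untreated, 0.153 CPM under DSS, counting error only), Pdzd7 was at least 127-fold lower in untreated KO and at least 57.7-fold lower in KO under DSS. Pdzd7 was the only one of the 12522 tested genes with 0 counts in all 6 KO samples and at least 3 in each WT sample, and no gene had the opposite pattern. By the authors' counts alone, this does not separate absent transcripts from reads that were not assigned. That search was chosen after the values of Pdzd7 had been seen.

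Sfxn3, beside it, encodes a sideroflexin, a carrier of the mitochondrial inner membrane that transports serine. It was at 41.0, 50.4 and 46.2 CPM in untreated WT and, under DSS, at 37.96, 38.7 and 35.5 CPM in WT. In KO it was at 15.2, 14.8 and 13.4 CPM untreated and at 14.3, 16.9 and 16.4 CPM under DSS. All KO samples were below all WT samples, and the level was 3.17-fold lower in untreated KO (log2 difference -1.66, SE 0.16) and 2.35-fold lower under DSS (-1.24, SE 0.16). Of all tested genes, Sfxn3 had the pattern most like that of Pdzd7 over the 12 samples, and the reverse also held (Pearson r = 0.989, n = 12, as a description). The 12 points fall into a WT and a KO cluster for both genes.

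The genes on either side of this pair were measured too. Lzts2, whose exons share 206 bases with those of Pdzd7 on the opposite strand (5.08% of the exonic length of Pdzd7), was at 36.8 ± 15.4 CPM (SD, n = 3) in untreated WT and 41.2 ± 13.3 in untreated KO, and at 68.5 ± 7.22 and 54.1 ± 3.80 under DSS. Its log2 differences were 0.17 untreated (edgeR adjusted p = 0.870) and -0.34 under DSS (edgeR adjusted p = 0.662), neither past the threshold of 0.05. On the other side, Kazald1 had few reads (4.81 CPM in untreated WT, 1.26 in untreated KO), with log2 differences of -1.92 and -1.001 that did not pass (edgeR adjusted p = 0.129 and 0.561). Lzts2 and Kazald1 were chosen after their values were seen.

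**Figure D1:**
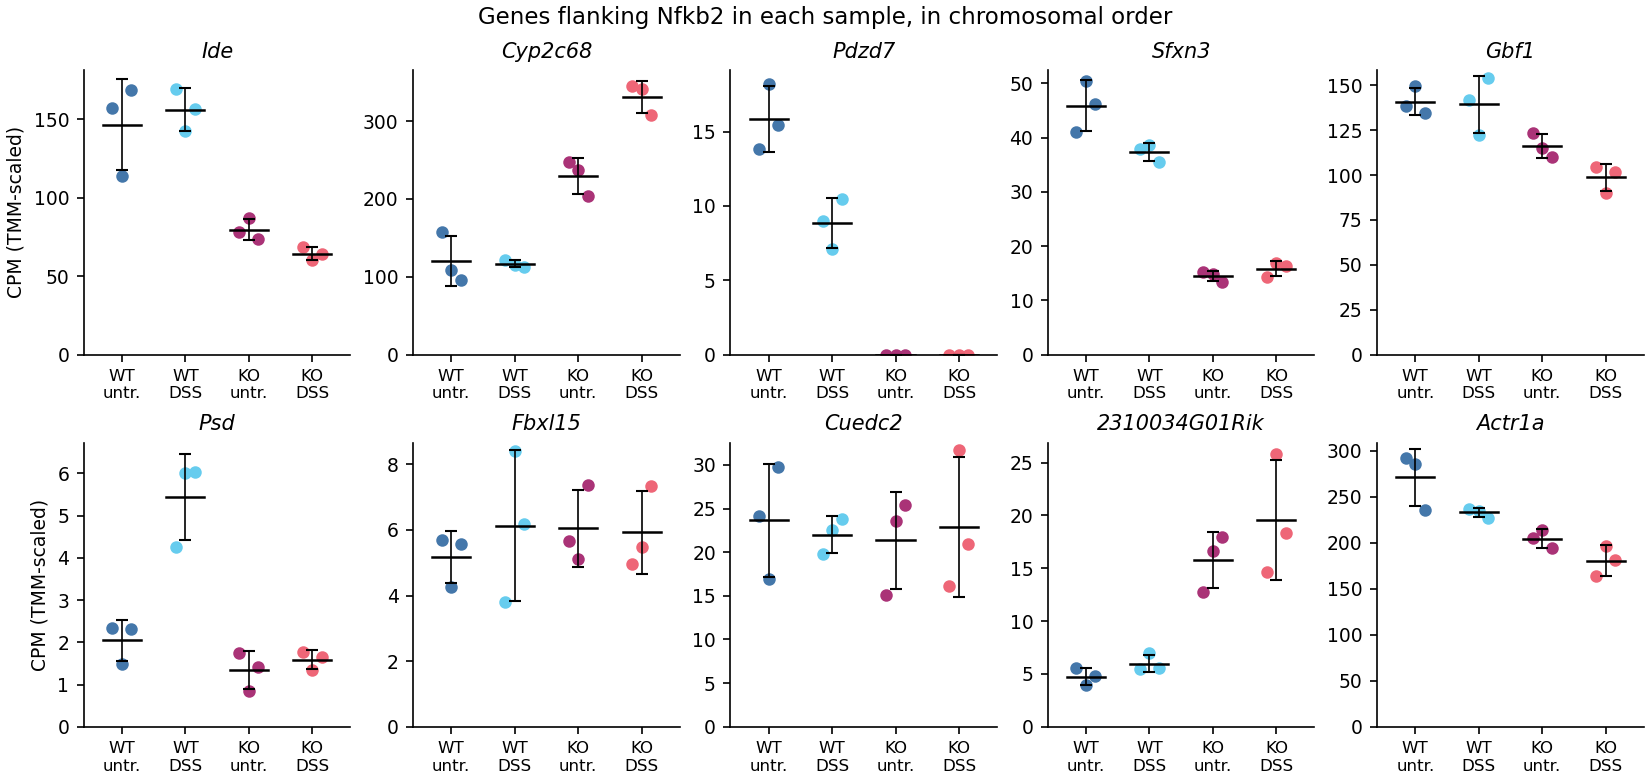
Level of each member in each sample, in CPM scaled by TMM factors, with 1 panel per gene in chromosomal order and its own axis from 0. Points are samples, bars are means of 3 and whiskers are 1 SD. Pdzd7 is at 0 in all 6 KO samples, Sfxn3 and Ide are lower in every KO sample than in any WT sample, and Cyp2c68 and 2310034G01Rik are higher in every KO sample.

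2310034G01Rik, an uncharacterised protein-coding gene 35.8 kb from Nfkb2 (ENSMUSG00000099655.1, from 46348201 to 46350302, minus strand), was higher in KO. Untreated WT samples had 5.54, 3.94 and 4.79 CPM and DSS-treated WT samples 5.47, 6.93 and 5.54 CPM, against 12.8, 16.6 and 17.9 CPM in untreated KO and 14.7, 25.8 and 18.3 CPM in KO under DSS. The lowest KO sample thus lay above the highest WT sample. The difference was 3.30-fold in untreated samples (log2 difference 1.72, SE 0.28) and 3.27-fold under DSS (1.71, SE 0.27). The gene shares no exon with another annotated gene and none of its 50-base words with another transcript.

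Ide encodes insulin-degrading enzyme, a zinc protease that cleaves insulin and amyloid peptides. It was at 157, 114 and 168 CPM in WT without DSS, 169, 142 and 156 CPM in WT with DSS, 78.4, 86.8 and 73.3 CPM in untreated KO and 68.6, 60.1 and 64.0 CPM in KO under DSS. Every KO sample was below every WT sample. The fitted group level was 1.84-fold lower in untreated KO (log2 difference -0.88, SE 0.14) and 2.43-fold lower under DSS (-1.28, SE 0.15). At 8.97 Mb it is the member farthest from Nfkb2.

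Cyp2c68 belongs to the cytochrome P450 2C family, haem enzymes that oxidise fatty acids and drugs, whose genes stand in a row on this chromosome. Untreated WT samples had 157, 109 and 96.3 CPM and DSS-treated WT samples 121, 115 and 113 CPM. In KO it was at 248, 238 and 204 CPM untreated and 345, 341 and 308 CPM under DSS, above every WT sample. The difference was 1.90-fold untreated (log2 difference 0.93, SE 0.15) and 2.85-fold under DSS (1.51, SE 0.15). Its transcripts share 43.3% of their 50-base words with 3 other genes, 35.6% with Cyp2c40 alone, so its counts cannot be assigned to this gene with certainty. Cyp2c40 itself had 0 to 11 counts in a sample and Cyp2c67 0 to 9.

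Other Cyp2c genes of the same row, chosen after their values were seen, are given beside it. Cyp2c55 was at 2244 ± 409 CPM (SD, n = 3) in untreated WT and 580 ± 46.5 in untreated KO, a log2 difference of -1.95 (edgeR adjusted p = 2.66e-06). Under DSS it was at 329 ± 42.3 CPM in WT and 348 ± 42.4 in KO (log2 difference 0.08, edgeR adjusted p = 0.860). Cyp2c65 also was lower in untreated KO (-1.39, edgeR adjusted p = 4.95e-05) and had a difference under DSS that did not pass (-0.29, edgeR adjusted p = 0.407). Cyp2c69, at 0.42 ± 0.33 CPM in WT and 4.08 ± 1.37 CPM in KO under DSS, was higher there (log2 difference 3.18, edgeR adjusted p = 0.0114), and its untreated difference did not pass (0.83, edgeR adjusted p = 0.490). Whether the genotype difference of Cyp2c55, Cyp2c65 or Cyp2c69 differed between the treatments was not tested.

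Of the members around Nfkb2, Psd, Gbf1, Actr1a, Fbxl15 and Cuedc2 were not called in both treatments. Psd, whose protein activates the small GTPase ARF6, overlaps Nfkb2 by 299 exonic bases on the opposite strand, 3.92% of its exonic length, and SMART-seq2 libraries do not mark strand. It had only 7 to 45 counts in a sample. Its level was 2.33, 1.48 and 2.32 CPM in untreated WT, 4.25, 6.00 and 6.03 in WT under DSS, 1.75, 0.854 and 1.43 in untreated KO and 1.77, 1.33 and 1.66 in KO under DSS. The untreated groups overlapped (log2 difference -0.60, SE 0.47), while under DSS every KO sample was below every WT sample (-1.76, SE 0.46).

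Gbf1, an exchange factor for ARF1 at the Golgi, was at 139, 150 and 135 CPM in WT without DSS, 142, 123 and 154 CPM in WT with DSS, 123, 115 and 110 CPM in untreated KO and 104, 90.3 and 102 CPM in KO under DSS. The groups did not overlap within either treatment, and the log2 differences were -0.28 (SE 0.11) untreated and -0.50 (SE 0.11) under DSS. Actr1a, the actin-related protein that forms the filament of dynactin, was at 292, 286 and 236 CPM in WT without DSS, 237, 235 and 227 CPM in WT with DSS, 205, 214 and 194 CPM in untreated KO and 164, 197 and 181 CPM in KO under DSS. Here too the KO samples were below the WT samples of the same treatment (-0.41, SE 0.11, and -0.37, SE 0.11).

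Fbxl15, a substrate receptor of a ubiquitin ligase, and Cuedc2, a ubiquitin-binding protein, had overlapping groups in both treatments. Fbxl15 was between 3.80 and 8.40 CPM in WT and between 4.95 and 7.37 CPM in KO, with log2 differences of 0.22 (SE 0.35) untreated and -0.05 (SE 0.35) under DSS. Cuedc2 was between 16.9 and 29.8 CPM in WT and between 15.1 and 31.7 CPM in KO, with log2 differences of -0.15 (SE 0.28) and 0.06 (SE 0.28). The 3′ ends of these 2 genes overlap by 345 exonic bases, 25.6% of Fbxl15 and 14.6% of Cuedc2, which limits how reads could be assigned. Mfsd13a, the gene between Cuedc2 and 2310034G01Rik and no member, was at 41.2 ± 4.94 CPM (SD, n = 3) in untreated WT and 42.3 ± 6.19 in untreated KO (edgeR adjusted p = 0.953), and at 48.9 ± 3.97 and 33.1 ± 3.20 under DSS (log2 difference -0.56, edgeR adjusted p = 0.0827). The next tested protein-coding genes on the lower-coordinate side after Gbf1, which are Nolc1, Pprc1, Ldb1 and Hps6, had untreated log2 differences of 0.11, 0.42, -0.26 and 0.53 and differences under DSS of -0.06, 0.47, -0.60 and 0.36. None of these 8 passed, and their edgeR adjusted p values were 0.303 to 0.942.

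**Figure D2:**
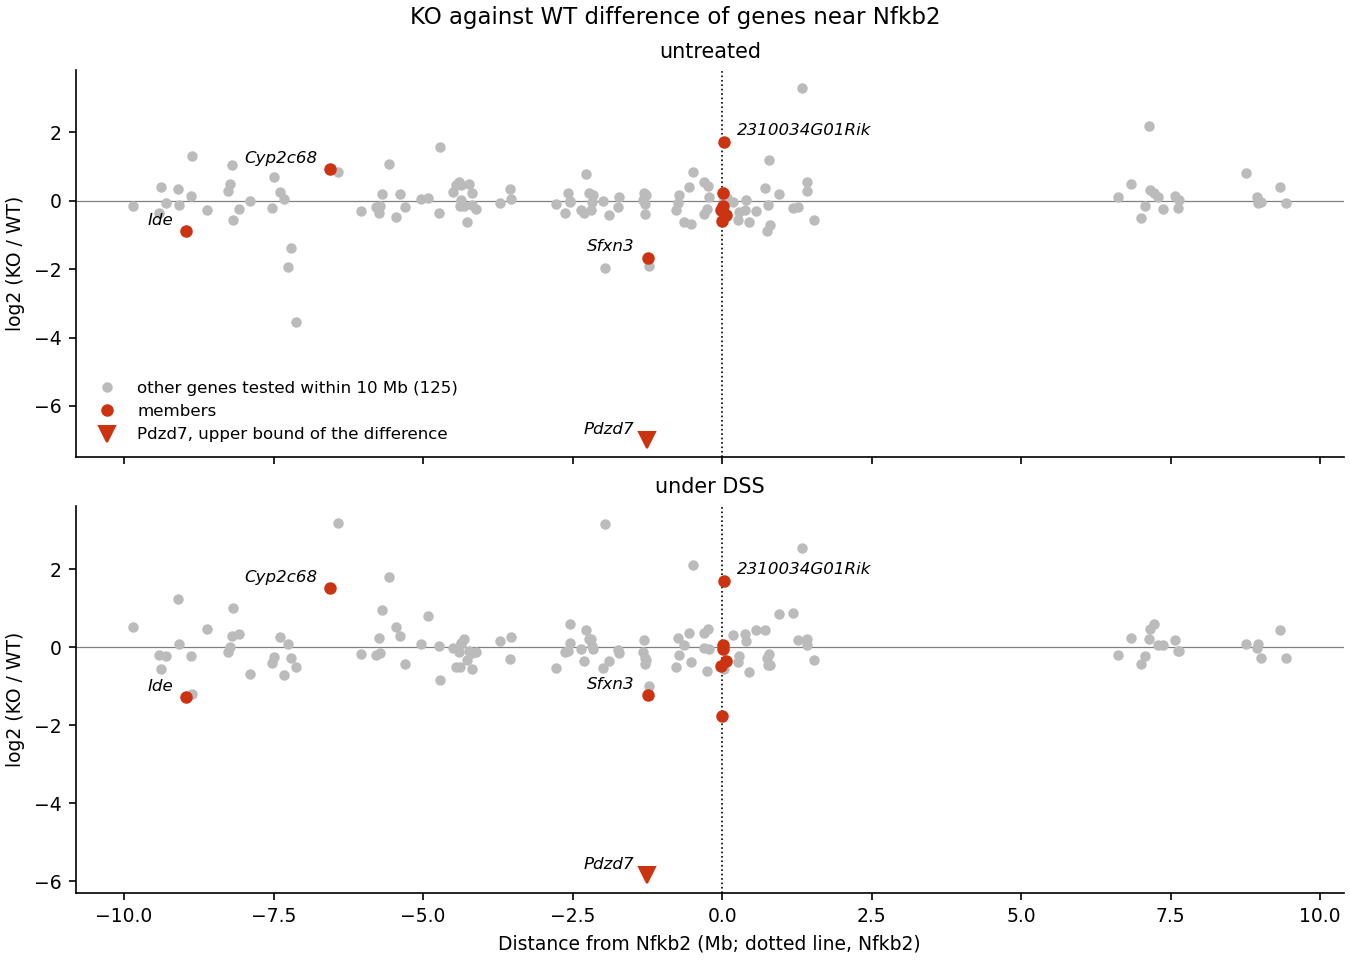
Log2 ratio of KO to WT for the 135 tested genes within 10 Mb of Nfkb2 against distance from Nfkb2 in Mb, untreated above and under DSS below. Red points are members, grey points the other 125 genes, and the triangle is the bound for Pdzd7 that the count floor allows. Differences of either sign occur among members and other genes alike, and the Pdzd7 bound is the lowest point in both panels.

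Placed in order of level per kb of exon over the 6 WT samples, Cyp2c68 (68.8 ± 12.02 CPM per kb, SD, n = 6) and Actr1a (58.4 ± 6.67) came first. These 2 did not differ beyond their spread over the pooled WT samples. Ide followed (20.1 ± 2.78), then Sfxn3 (13.4 ± 1.80) and Gbf1 (12.9 ± 1.03), which did not differ beyond their spread, and Cuedc2 (9.68 ± 1.86). Fbxl15 (4.19 ± 1.21), 2310034G01Rik (3.91 ± 0.72) and Pdzd7 (3.04 ± 1.04) followed with overlapping spreads over the pooled WT samples, and Psd was lowest (0.49 ± 0.26). Under DSS alone, Pdzd7 (2.18 ± 0.42, n = 3) stood below 2310034G01Rik (4.36 ± 0.60) in WT by more than their spread. Actr1a (53.9 ± 1.17) likewise stood below Cyp2c68 (67.5 ± 2.59) there. In KO the order changed. Cyp2c68 led with 163 ± 34.3 CPM per kb and Actr1a had 44.6 ± 4.16. Over the pooled KO samples 2310034G01Rik (12.9 ± 3.27) stood with Gbf1 (9.91 ± 1.06), Ide (9.57 ± 1.30) and Cuedc2 (9.39 ± 2.63) within their spread. Sfxn3 (4.88 ± 0.41) and Fbxl15 (4.44 ± 0.81) came next, then Psd (0.19 ± 0.05) and Pdzd7 at 0. In KO under DSS alone, 2310034G01Rik (14.3 ± 4.13, n = 3) stood above Gbf1 (9.10 ± 0.69) and Ide (8.56 ± 0.57) by more than their spread.

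Of the 10 members, 5 passed edgeR's threshold (adjusted p under 0.05) in untreated samples, where 3.47% of all tested genes did, and 6 under DSS, where 3.11% did. Pdzd7, Sfxn3, Ide, Cyp2c68 and 2310034G01Rik passed in both treatments in 1 direction, against 0.679% of all tested genes. Nothing is read from these shares, because the same differences chose some of the members. The larger of the 2 adjusted p values was 0.00313 for Cyp2c68, the member just inside that double threshold, and 0.0883 for Actr1a and 0.101 for Scd1, the genes just outside it. The KO and WT samples did not overlap for 7 members untreated (19.3% of all tested genes), for 8 under DSS (22.3%) and for 7 in both treatments in 1 direction (4.76%).

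The window as a whole was then counted by distance. Within 10 Mb of Nfkb2, which is itself left out, 9 of 135 genes passed untreated (6.67%) and 10 under DSS (7.41%), against 3.44% and 3.06% of the 12386 genes outside the window. Without the members, 4 of 125 passed in each treatment. These genes, named after their values were seen, were Ffar4, Cyp2c55, Cyp2c65 and Scd1 untreated, and Cyp2c69, Pgam1, Got1 and Scd2 under DSS. In both treatments in 1 direction, 5 of 135 passed (3.70%), all of them members, and 80 of the 12386 genes outside (0.646%). None of the 323 tested genes on the rest of chromosome 19 passed in both. Without the members, the window's share was 3.20% in each treatment, beside 3.44% and 3.06% outside it. Some members were picked for such differences, so leaving them out lowers the counts without members here and below by construction. The window counts rest on few genes: under DSS, the 10 became 5 without KO replicate 3 or WT replicate 1 and 6 without KO replicate 2 or WT replicate 3, and the 4 non-members untreated became 2 without KO replicate 1 or 2.

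Within 1 Mb of Nfkb2, 1 of 33 genes passed untreated (3.03%) and 2 of 33 under DSS (6.06%), where the called genes were the members 2310034G01Rik and, under DSS, also Gbf1. Without the members, edgeR called 0 of 27 there in either treatment, where 4 untreated and 3 under DSS had an unadjusted p under 0.05 and DESeq2 called 1 in each. Between 1 and 5 Mb, 3 of 49 passed untreated (6.12%) and 5 of 49 under DSS (10.2%), and without the members 1 of 47 (2.13%) and 3 of 47 (6.38%). Between 5 and 10 Mb, 5 of 53 passed untreated (9.43%) and 3 of 53 under DSS (5.66%), and without the members 3 of 51 (5.88%) and 1 of 51 (1.96%). The shares outside the window were 3.44% untreated and 3.06% under DSS. The median size of the log2 difference, without sign, was 0.26 untreated and 0.28 under DSS in the 125 non-members, against 0.23 and 0.24 over all tested genes.

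The untreated and DSS comparisons of genotypes share no sample. Among the 125 non-members their log2 differences had the same sign for 73 genes (58.4%), against 58.0% of genes outside the window. For 8 of the 10 members the sign was the same, and Fbxl15 and Cuedc2 were the exceptions. Some members were picked on these differences, so their shared sign supports nothing. Leaving them out also affects the values of the non-members. Across genes, the 2 differences had a Pearson r of 0.23 in the non-members and 0.34 outside the window, where genes are not independent replicates.

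**Figure D3:**
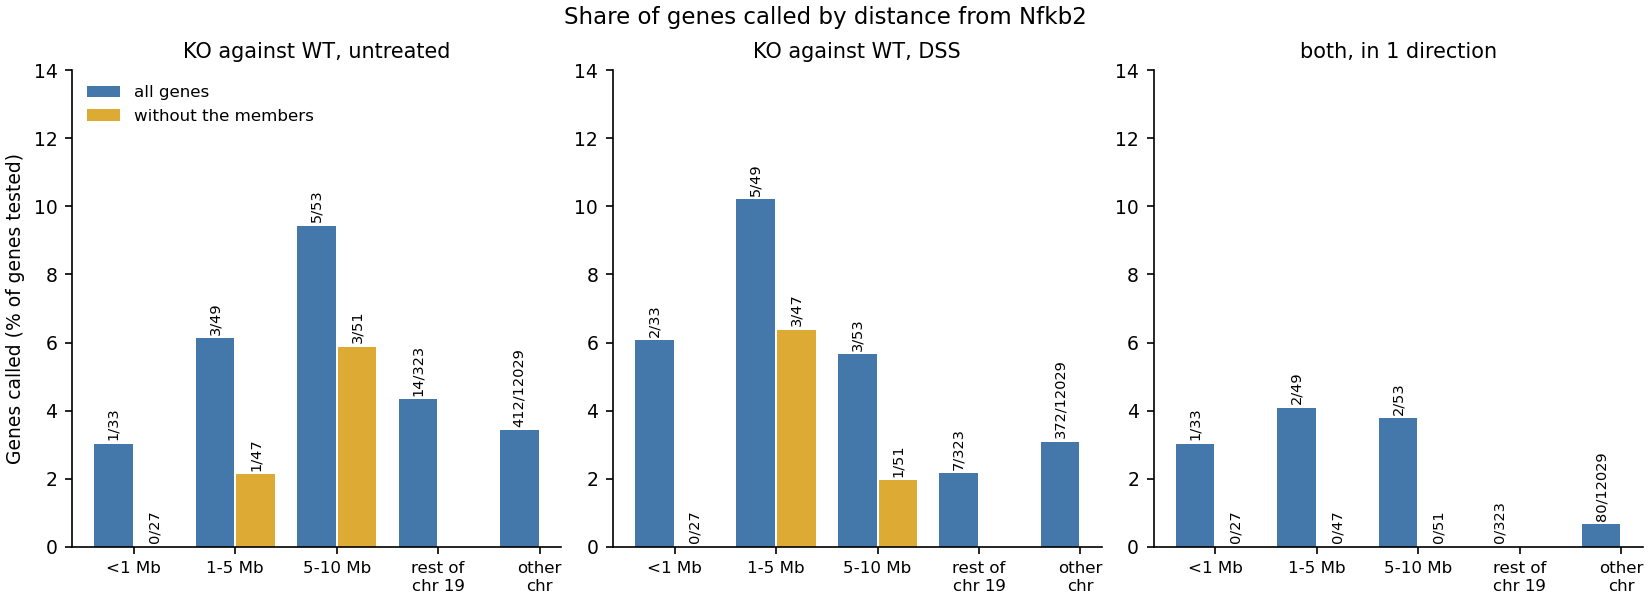
Percent of tested genes called between KO and WT (edgeR adjusted p under 0.05) in bands of distance from Nfkb2, on the rest of chromosome 19 and on other chromosomes, untreated, under DSS and in both in 1 direction. Blue bars count all genes of a band, yellow bars leave out the members, and the fraction above a bar gives genes called over genes tested. Without the members no gene within 10 Mb is called in both treatments, where some members were picked for differing in both.

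The response to DSS was not itself used to choose the members and was tested. It comes from the same 4 groups as the genotype differences that chose some members, so it is not independent of that choice. In WT, none of the 10 members passed (edgeR adjusted p 0.0936 at the lowest), where 6.30% of all tested genes did, and 2 had an unadjusted p under 0.05, as did 17.6% of all tested genes. DESeq2 also called none. In KO, none of the 9 members with counts passed (edgeR adjusted p 0.0698 at the lowest), where 3.92% of all tested genes did, and 1 had an unadjusted p under 0.05, as did 15.9% of all tested genes. DESeq2 called 1, Cyp2c68. With so few members, 0 called by edgeR cannot be told apart from the shares over all tested genes. The median log2 change of the members was -0.03 in WT and 0.10 in KO, against 0.01 and 0.02 over all tested genes.

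The nearest to a DSS change in WT were Psd and Pdzd7. Psd had 28, 45 and 37 counts under DSS and 16, 9 and 15 untreated, with no overlap of the levels (log2 change 1.40, SE 0.45, edgeR adjusted p = 0.0936). In KO it had 10, 9 and 12 counts under DSS and 13, 7 and 12 untreated (0.24, SE 0.48, edgeR adjusted p = 0.880). The difference between these changes, -1.16 (SE 0.66), was not tested because it is built from the genotype differences that chose members. Over the same samples Nfkb2, whose exons overlap Psd, had a log2 change of 0.20 (SE 0.19) in WT and 0.28 (SE 0.20) in KO. Pdzd7 was lower in each WT sample under DSS than in any untreated WT sample (-0.84, SE 0.32, edgeR adjusted p = 0.194), and Sfxn3 beside it had the same arrangement (-0.29, SE 0.15, edgeR adjusted p = 0.362).

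In KO, Cyp2c68 was higher in each DSS sample than in any untreated sample (log2 change 0.53, SE 0.15, edgeR adjusted p = 0.0698). With the replicate number as a block, it passed (0.53, edgeR adjusted p = 0.0377). That block gives each number an effect shared by WT and KO, whose same-numbered samples did not deviate together. It therefore does not model a pairing within KO alone. The log2 change of Cyp2c68 in WT was -0.05 (SE 0.15, edgeR adjusted p = 0.922), and the difference between genotypes of 0.58 (SE 0.21) was not tested. It also passed without untreated WT replicate 1 (edgeR adjusted p = 0.00990) or replicate 3 (0.0258), and its adjusted p was 0.254 without untreated KO replicate 3. Ide and Gbf1 were lower in each KO sample under DSS than in any untreated KO sample (log2 change -0.31, SE 0.14, edgeR adjusted p = 0.319, and -0.24, SE 0.11, edgeR adjusted p = 0.335). The DSS groups did not overlap for 3 members in WT and for 3 in KO, where 20.6% and 24.3% of all tested genes had groups that did not overlap.

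The remaining members had DSS changes smaller than 2 standard errors in KO and, apart from Actr1a, in WT. Actr1a had a log2 change of -0.22 (SE 0.11, edgeR adjusted p = 0.309) in WT and of -0.18 (SE 0.11, edgeR adjusted p = 0.464) in KO. 2310034G01Rik had log2 changes of 0.33 (SE 0.29) in WT and 0.31 (SE 0.26) in KO.

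**Figure D4:**
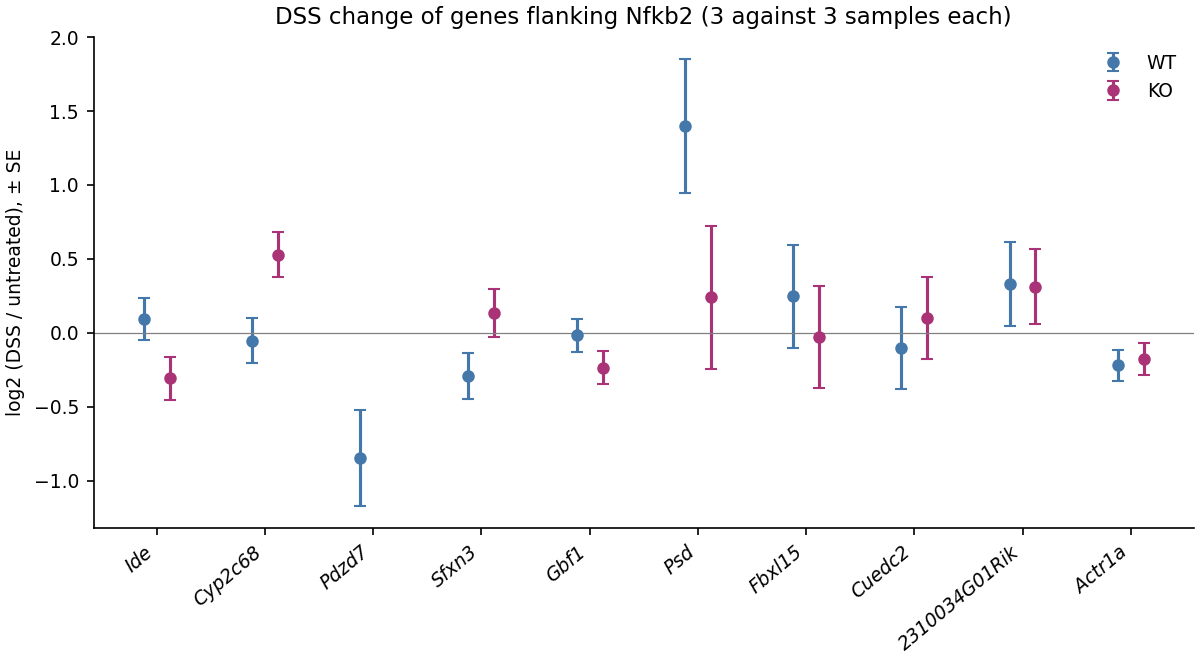
Log2 change under DSS of each member in WT (blue) and KO (purple), with whiskers of 1 standard error from the edgeR fit, 3 samples against 3. Pdzd7 has no value in KO, where it had no counts, and no change shown passes an adjusted p of 0.05 in this fit.

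The single tested gene most like each member over the 12 samples was also found. Besides the pair of Pdzd7 and Sfxn3, only Actr1a had its closest match on chromosome 19, 1110059E24Rik (Pearson r = 0.966). The other matches were Cyp4f40 for Ide (0.938), Cyp2f2 for Cyp2c68 (0.969), Nudt16l1 for 2310034G01Rik (0.945), Hyou1 for Psd (0.912), Etohd2 for Fbxl15 (0.820), Snapc4 for Cuedc2 (0.892) and Plekhm1 for Gbf1 (0.926). Each r is the highest of 12521 and is a description of these 12 samples.

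Within groups the members varied to different degrees. The coefficient of variation between the 3 samples of a group ranged from 2.16% (Actr1a in WT under DSS) to 37.6% (Fbxl15 in WT under DSS). The library numbers in the labels of all WT samples precede those of all KO samples, so the order of the libraries and the genotype cannot be told apart.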

How the data were processed

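Gene expression was measured by RNA sequencing (SMART-seq2 libraries from 2 ng of RNA, without molecular identifiers or strand information) in 12 samples. The authors deposited raw read counts for each gene, without normalization. STAR 2.5.2b, featureCounts 1.5.0 and GRCm38 (mm10) are named in the submitters' processing notes, and the annotation release and the handling of shared reads are not given in the sources used here. Of 46517 Ensembl IDs, 46005 matched GENCODE M21 (GRCm38) without their version, which gave symbols and coordinates. Each distance runs between the nearest edges of a gene and Nfkb2.

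Genes kept by filterByExpr (12522, 99.8% of counts) were scaled by TMM and fitted with edgeR 4.0.16 in R 4.3.3, with 1 coefficient per group over all 12 samples. Contrasts were tested by the two-sided quasi-likelihood test, adjusted by Benjamini-Hochberg over all genes tested and called at 0.05. All CPM values use TMM library sizes, and log2 CPM used a prior count of 2. Intervals and floors cover counting error only. No pair of replicates agreed within sampling noise (chi-square per degree of freedom 6.72 to 28.3). The scripts were tested on simulated data.

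Sample numbers in the titles were checked for pairing. Deviations of same-numbered samples correlated weakly between treatments, at 0.204, 0.106 and 0.127 in KO and at 0.0138, 0.120 and 0.128 in WT. No value for differently numbered samples is given, so whether the numbers pair the KO samples is not settled. Between genotypes every pair was below 0.

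Named genes are Nfkb2, the members, other window genes called in both genotype contrasts (none), the 5 nearest tested protein-coding genes on each side and the gene most like each member. Others are said to be chosen after their values were seen. The members and lists were chosen with earlier results of these data known. Alternatives were DESeq2 1.42.0, size factors, other filters, a replicate block, fits to 6 samples and leaving out each sample.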

Additional observations from a re-analysis of the deposited data

How the results depend on the processing

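The 5 members called in both treatments (Pdzd7, Sfxn3, Ide, Cyp2c68, 2310034G01Rik) were called in every alternative that tested them. These repeated calls support nothing, because the same differences in the same samples chose some of the members. A minimum of 10 counts in each library drops Pdzd7. DESeq2 and the fit without untreated WT replicate 3 added Actr1a. No member changed sign between TMM and size factors, and 7 alternatives made the DSS change of Cyp2c68 in KO pass the threshold. In 12 cases, all with 1 sample left out, a DSS change that passed in no fit turned its sign. These log2 changes ranged in WT from -0.063 to 0.20 for Ide, -0.19 to 0.18 for Cyp2c68, -0.055 to 0.50 for Fbxl15, -0.29 to 0.10 for Cuedc2 and -0.095 to 0.067 for Gbf1. In KO they ranged from -0.0025 to 0.46 for Psd, -0.21 to 0.14 for Fbxl15 and -0.21 to 0.30 for Cuedc2. The genotype differences of Cuedc2 (-0.34 to 0.06 untreated, -0.26 to 0.26 under DSS) and Fbxl15 (-0.30 to 0.25 under DSS) also changed sign then.

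Within 10 Mb, the 9 genes called untreated became 16 with DESeq2 and 15 without a low-count filter, and 7 to 12 when 1 sample was left out. Without the members, the 4 untreated became 10, 10 and, in the fit to the 6 samples compared, 2, and 2 to 6 when 1 sample was left out. Under DSS, the 10 genes became 6 with a 1.5-fold minimum, and 5 to 13 when 1 sample was left out. Without the members the 4 under DSS became 7 with DESeq2 and 1 with the fold minimum, and 0 to 5 when 1 sample was left out. Without KO replicate 1, 2 or 3 under DSS it was 2, 1 and 0, and without WT replicate 1, 2 or 3 under DSS 0, 2 and 1. In both treatments, 5 to 6 genes of the window passed when 1 sample was left out, and without the members 0 became 1 with DESeq2 (Scd1). Outside the window the counts were 426 untreated, 379 under DSS and 80 in both. They became 773, 645 and 152 with DESeq2, 687, 630 and 148 without a low-count filter, 187 untreated and 45 in both in the fits to 6 samples, and 203 to 712, 154 to 552 and 38 to 143 when 1 sample was left out. The cause was not tested.

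In KO, 0 members changed under DSS, and 1 (Cyp2c68) passed with DESeq2, with that minimum of 10 counts, with no filter and in the fit to the 6 KO samples. With the replicate block 1 passed too (edgeR adjusted p = 0.0377), and 0 to 1 when 1 sample was left out. In WT no alternative called a member. In the genotype contrasts with the block, 8 window genes passed untreated and 9 under DSS, 3 and 4 of them not members, so 5 members rather than 6 passed under DSS. With it 5 window genes and 61 outside genes passed in both treatments. There the numbers did not pair the samples. The Nfkb2 difference was -1.38 to -1.23 when 1 sample was left out.

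Psd and Fbxl15, with 7 to 63 counts in a sample, are limited by depth. So is 2310034G01Rik in WT, with 24 to 52 counts in a sample.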
